A study of Mus musculus with 30 samples.

Results

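The genes described are 36 genes of major histocompatibility complex (MHC) antigen presentation, taken from a list by symbol out of the 55401 gene identifiers in the count table, and 31 of them passed the filter on low counts. The list holds 10 class I heavy chains, their light chain B2m, 7 genes of peptide transport and loading, 5 of the immunoproteasome and its activator, the transactivators Nlrc5 and Ciita, 3 class II chains, 6 class II chaperones and editors, and 2 genes of endosomal processing. Class I molecules display peptides cut by the proteasome in the cytosol, which the Tap1 and Tap2 transporter carries into the endoplasmic reticulum, where tapasin and its partners load them onto a heavy chain paired with B2m. Class II molecules display peptides from the endosome and are held by the invariant chain Cd74 until the DM editor has loaded them. B cells carry both kinds, with Nlrc5 the main transactivator of class I genes and Ciita that of class II genes.

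The cells were a mouse B-cell lymphoma line with the Eµ-Myc transgene, in which an immunoglobulin enhancer drives Myc in B-lineage cells, and without p19ARF (Eµ-Myc; p19ARF -/-). Both groups and the parental library share this genotype and this one founder line, and they were grown in culture with no other cells, so the lines were compared without a host. Wells of cells were carried for 12 to 18 weeks through cycles of 3 days in paclitaxel, a microtubule-stabilizing drug, at a dose meant to kill 85% of cells, and 4 days without drug, or through the same cycles with its solvent DMSO. There were 12 DMSO control lines, 17 paclitaxel resistant lines (named Pac and a well) and 1 parental line, with 1 3′-end digital gene expression library each. The lines were populations grown out of separate wells, which the labels do not describe as clones, so p-values measure the spread between wells of one founder.

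Library totals ranged from 480919 to 6739131 counts, and the smallest library was Pac C1. B-lineage markers were present throughout, with a summed level of 3995 to 6301 CPM (counts scaled by TMM factors to a library of 1000000) in the DMSO control libraries and 2267 to 6693 CPM in the paclitaxel libraries, and 12 of the 13 averaged over 5 CPM. The 9 T-cell markers summed to at most 22.4 CPM in any library, and Cd3e and Cd4 were at 0 in all 30 libraries. Of 13 myeloid and dendritic markers, Adgre1, S100a8, S100a9 and Clec9a were at 0 in every library and the summed level, most of it Tyrobp, ran from 37.5 to 276 CPM in the DMSO control libraries and from 51.4 to 339 CPM in the paclitaxel libraries. Of 6 stromal markers only Pecam1 averaged over 5 CPM.

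Libraries labelled DMSO 12 and Pac H9 went against their labels. Abcb1b, the drug efflux pump gene, was at 16.04 to 45.8 CPM in the other DMSO control libraries and 42.2 to 258 CPM in the other paclitaxel libraries, but at 70.3 CPM in the library labelled DMSO 12 and 26.3 CPM in the library labelled Pac H9. On the first 2 principal components of the tested genes these libraries and the one labelled DMSO 11 were the 3 nearer to the other group. The one labelled DMSO 11 was about as near to its own group. On the first component, with 23.7% of the variance, it lay at 55.1, where the next highest DMSO control library was at 0.81. Over all tested genes, each of the 12 DMSO control libraries was on average nearer to the rest of its own group, whereas 13 of the 17 paclitaxel libraries were nearer to the DMSO control libraries than to each other. In the order of the deposited table the libraries labelled DMSO 12 and Pac H9 are the first and the last of 18 neighbouring libraries. Only the library labelled Parental follows them, so the labels from DMSO 12 on may each belong to a neighbouring library. Whether they do was not tested. Such a move would change the group only of the libraries labelled DMSO 12, Pac H9 and Parental, but every well name could then be that of the next line, and the library labelled Parental could be a DMSO control line. Libraries and wells are named as labelled, and directions between groups hold for those labels. Calls, and the fold changes of the genes that carry the results, are also given without the libraries labelled DMSO 12 and Pac H9.

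Promoters are shown for the class I genes H2-K1 and H2-D1, the transporter gene Tap1 and the class II genes H2-Aa and H2-Eb1, as examples of the genes described next. The RefSeq promoter table (GRCm38.p6) matched 28 of the 36 genes, and Nlrc5, Ciita, H2-Ab1, Tap2, Tapbpl, H2-T10, H2-T24 and Cd74 are not shown. Each window runs from 250 bases before to 50 after the start of the gene in RefSeq, 5′ to 3′ on the strand of the gene. For H2-D1 that start lies downstream of the start in the gencode M21 annotation, from which gene positions are given, so its window lies inside the gencode gene. Capitals mark CCAAT on either strand (the Y box of MHC promoters), TGACG on either strand (the core of the X2 box and of CRE sites), GGGATTCCC on either strand (the core of enhancer A, bound by NF-kB proteins) and TTTCACTTC on either strand (the interferon-response element of class I genes). The windows are chr17:34000298-34000597 (minus strand), chr17:35262844-35263143 (plus), chr17:34187306-34187605 (plus), chr17:34287774-34288073 (minus) and chr17:34305617-34305916 (plus).
H2-K1: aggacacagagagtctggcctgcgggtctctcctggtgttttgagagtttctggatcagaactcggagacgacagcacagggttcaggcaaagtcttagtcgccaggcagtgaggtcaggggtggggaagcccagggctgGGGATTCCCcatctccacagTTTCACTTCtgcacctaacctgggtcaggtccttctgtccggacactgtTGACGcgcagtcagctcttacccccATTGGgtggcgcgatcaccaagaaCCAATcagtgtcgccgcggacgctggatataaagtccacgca
H2-D1: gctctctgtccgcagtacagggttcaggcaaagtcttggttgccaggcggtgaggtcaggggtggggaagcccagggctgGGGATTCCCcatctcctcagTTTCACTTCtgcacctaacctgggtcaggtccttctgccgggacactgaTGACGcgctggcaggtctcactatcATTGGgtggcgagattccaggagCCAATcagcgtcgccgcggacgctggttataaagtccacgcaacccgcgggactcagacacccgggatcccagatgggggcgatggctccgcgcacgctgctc
Tap1: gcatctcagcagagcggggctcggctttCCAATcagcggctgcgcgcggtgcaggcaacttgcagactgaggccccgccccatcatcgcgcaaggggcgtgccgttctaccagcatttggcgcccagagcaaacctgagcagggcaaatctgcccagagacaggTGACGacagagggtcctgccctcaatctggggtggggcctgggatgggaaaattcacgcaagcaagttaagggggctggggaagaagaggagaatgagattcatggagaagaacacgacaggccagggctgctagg
H2-Aa: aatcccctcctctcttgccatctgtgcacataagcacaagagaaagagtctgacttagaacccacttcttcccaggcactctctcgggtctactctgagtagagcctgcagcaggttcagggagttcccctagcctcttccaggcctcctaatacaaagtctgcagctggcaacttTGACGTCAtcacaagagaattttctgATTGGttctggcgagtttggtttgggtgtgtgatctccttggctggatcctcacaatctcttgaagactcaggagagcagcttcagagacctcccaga
H2-Eb1: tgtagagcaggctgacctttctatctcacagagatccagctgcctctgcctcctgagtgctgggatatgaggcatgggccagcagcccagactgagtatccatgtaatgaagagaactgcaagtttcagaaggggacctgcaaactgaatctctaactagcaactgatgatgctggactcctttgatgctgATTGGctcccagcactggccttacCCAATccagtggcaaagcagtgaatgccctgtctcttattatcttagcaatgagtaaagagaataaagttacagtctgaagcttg
H2-K1 and H2-D1 held all 4 kinds of letters in the same order, as did H2-Q7. GGGATTCCC stood in 0.353% of the 32851 promoters of the table and in 4 of the 28 genes matched (H2-K1, H2-D1, H2-Q6 and H2-Q7). TTTCACTTC stood in 0.505% of all promoters and in 6 of the 28 genes, all of them class I heavy chains. CCAAT stood in 37.4% of all promoters and in 21 of the 28 genes, and TGACG in 20.8% and in 13. The interferon-response repeat GAAANNGAA, on either strand, stood in 8.56% of promoters and in 6 of the 28 genes (B2m, Ctss, Erap1, H2-T22, H2-T23 and Psme1). The Tap1 window overlaps that of Psmb9, which lies head to head with it on the other strand, so the same letters begin 222 bases before the Tap1 start and 8 bases before the Psmb9 start.

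The question of the comparison was whether lines that had evolved under paclitaxel differ in gene expression from lines carried in DMSO. The fitted means of H2-K1, H2-D1, Tap1 and Nlrc5 of class I were 2.37-fold to 6.63-fold higher in the paclitaxel resistant lines, and that of B2m 1.1-fold. Those of H2-Aa, H2-Eb1 and H2-DMb1 of class II were 2.99-fold to 3.71-fold higher, those of H2-Ab1 and Cd74 1.08-fold and 1.03-fold, and that of Ifi30 was lower, at 0.534 of the DMSO control mean. In edgeR's quasi-likelihood test at an adjusted p under 0.01 over 9445 genes, none of the 31 tested genes was called in either direction, beside 0.995% of all genes called higher and 1.21% called lower. The likelihood ratio test of edgeR and DESeq2 each called 4 of them higher at that threshold (H2-K1, H2-D1, Nlrc5 and Tap1), beside 2.46% and 2.96% of all genes with an adjusted p, and none lower, beside 2.29% and 2.47%. At an adjusted p under 0.05, the quasi-likelihood test called 5 higher (those 4 and H2-DMb1), beside 3.93% of all genes, and 0 lower, beside 3.63%. At that threshold the likelihood ratio test called 5 higher, beside 5.83% of all genes, and DESeq2 6, beside 6.9%, and each called Ifi30 lower, beside 4.65% and 4.98%. With any 1 library left out, H2-K1, H2-D1 and Nlrc5 stayed under 0.05 in 29 of 29 fits, Tap1 in 25 and H2-DMb1 in 15. At an unadjusted p under 0.05 it gave 12 higher, beside 14.9% of all genes, and 2 lower, beside 10.2%.

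Without the libraries labelled DMSO 12 and Pac H9, 32 of the 36 genes were tested, Nlrc5 was called higher at 0.01 (1.65% of all genes were) and the same 5 genes at 0.05 (5.02% of all genes). At an unadjusted p under 0.05, 12 were then higher, beside 14.6% of all genes, and 4 lower (Erap1, Ifi30, Psmb8 and Psme2), beside 10.8%. In the fit of all 29 libraries, the median log2 fold change was 0.15 over the 31 genes and 0.07 over all genes tested, with 21 of the 31 (67.7%) above 0, beside 56.6% of all genes. With all 29 libraries, the 2 groups overlapped for each of the 31 genes, as they did for every gene tested (0% of genes had no overlap in either direction).

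**Figure D1:**
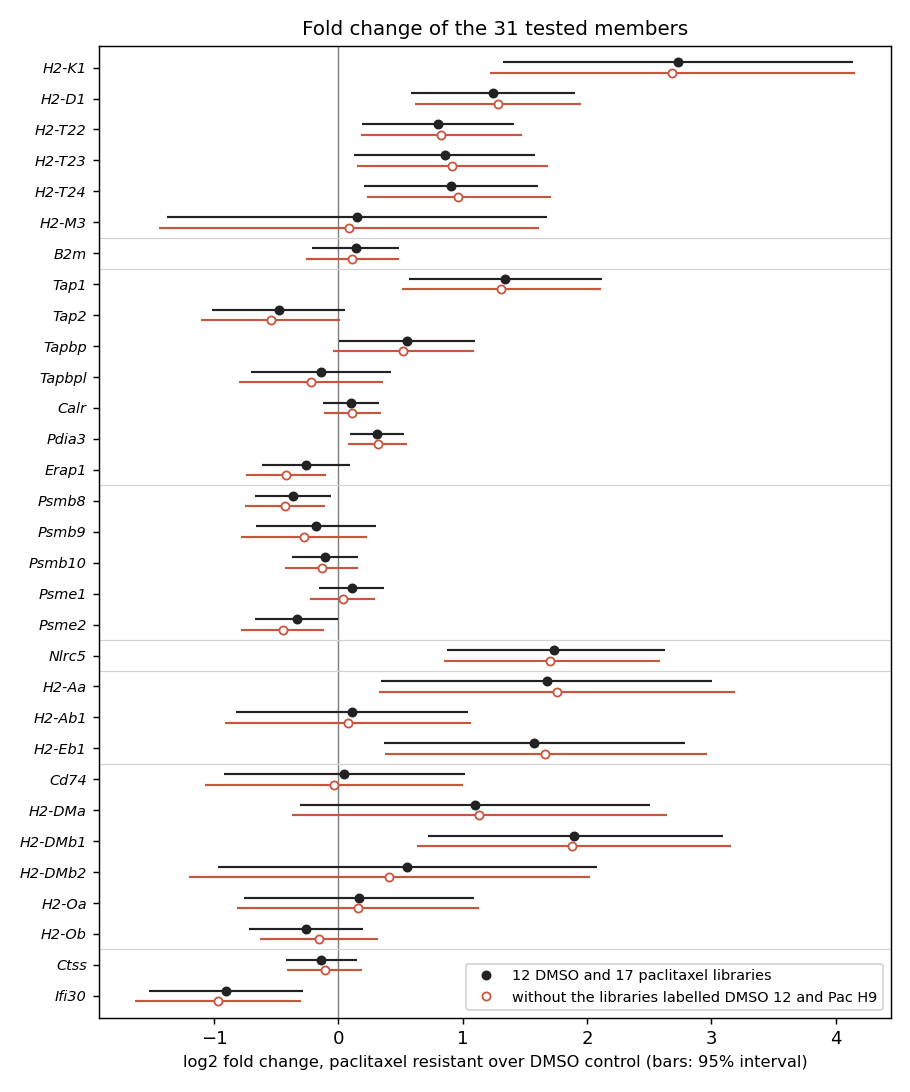
Log2 fold changes, paclitaxel resistant over DMSO control, of the 31 tested genes (points) with their 95% intervals (bars), for all 29 libraries (filled) and without the libraries labelled DMSO 12 and Pac H9 (open); grey lines separate the role groups. H2-K1 lies farthest to the right at 2.73, and Ifi30 is farthest to the left at -0.90. The genes of the immunoproteasome and its activator lie between -0.37 and 0.11.

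All 6 class I heavy chains that were tested had a positive log2 fold change, with a median of 0.88, beside 56.6% of all genes tested. H2-K1 (ENSMUSG00000061232, chr17:33996017-34000347 on the minus strand, GRCm38), one of the 2 classical heavy chains here, ranged from 1.14 to 44.5 CPM with a median of 9.06 CPM in the DMSO control lines. In the paclitaxel resistant lines it ranged from 0.50 to 437 CPM with a median of 19.6 CPM, and the parental library held 5.37 CPM. The 6 paclitaxel libraries above every DMSO control library were Pac D7, A6, C11, F10, C3 and G9, and Pac B2, at 0.50 CPM, was below all of them. The library labelled DMSO 11, at 44.5 CPM, stood above the other DMSO control libraries, of which the next was DMSO 7 at 14.6 CPM. On the first principal component, Pac D7, A6, C11, F10 and G9 lay at 43.6 to 89.0, with DMSO 11 at 55.1 and Pac D4 at 70.0. Pac D4 held 19.6 CPM of H2-K1. Pac C3 lay at -14.1, and the other paclitaxel libraries at -4.7 or lower. Whether H2-K1 follows this component was not tested. The fitted mean was 6.63-fold higher (log2 fold change 2.73 ± 0.69 SE, adjusted p = 0.0136 by edgeR's quasi-likelihood test), and 2.68 on the log2 scale with an adjusted p of 0.0165 without the libraries labelled DMSO 12 and Pac H9. The call at 0.01 was made without the library labelled DMSO 11 (3.31, adjusted p = 0.00448), without Pac B2 (2.79, adjusted p = 0.00786) and without Pac H4 (2.79, adjusted p = 0.00875). The lowest log2 fold change with 1 library left out was 2.16, without Pac D7 (adjusted p = 0.0276). In bulk RNA, fewer cells that express a gene and less RNA per cell cannot be told apart.

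H2-D1 (ENSMUSG00000073411, chr17:35262730-35267499 on the plus strand), the other classical heavy chain, ranged from 25.3 to 130 CPM with a median of 78.2 CPM in the DMSO control lines and from 44.1 to 637 CPM with a median of 159 CPM in the paclitaxel resistant lines. Its parental level was 36.4 CPM. In 10 of the 17 paclitaxel libraries H2-D1 was above every DMSO control library, and in 14 above their median, with Pac D7, C11 and G9 the highest. The means were 79.9 ± 31.9 CPM (SD, n = 12) and 188 ± 149 CPM (SD, n = 17), and the fitted mean was 2.37-fold higher (log2 fold change 1.24 ± 0.32 SE, adjusted p = 0.0157 by edgeR's quasi-likelihood test). Leaving out the libraries labelled DMSO 12 and Pac H9 gave 1.28 and an adjusted p of 0.0118, and leaving out Pac B2 alone gave the call at 0.01 (1.29, adjusted p = 0.00896). Without Pac D7 it was 0.99 (adjusted p = 0.026), the lowest with 1 library left out, and the highest adjusted p was 0.0332, without DMSO 10.

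The nonclassical chains H2-T22, H2-T23 and H2-T24 had log2 fold changes of 0.80 to 0.90. H2-T22 ranged from 4.81 to 25.8 CPM in the DMSO control lines and from 4.18 to 48.7 CPM in the paclitaxel resistant lines, with a log2 fold change of 0.80. H2-T23 (Qa-1), a ligand of natural killer cell receptors, had medians of 23.5 and 25.6 CPM and a log2 fold change of 0.86, and 5 paclitaxel libraries were above the highest DMSO control library, led by Pac H1 at 168 CPM and Pac G9 at 112 CPM. Of its 3′ words, 38.1% also occur in other genes. H2-T24 had medians of 3.53 and 5.20 CPM. H2-T22, H2-T23 and H2-T24 passed an unadjusted p of 0.05 and no adjusted threshold (adjusted p = 0.0934, 0.134 and 0.0964 by edgeR's quasi-likelihood test). Reads of H2-T22 and H2-T10 are uncertain, because 58.9% of the 50-base words in the last 500 bases of the H2-T22 transcripts also occur in H2-T10.

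H2-M3, which presents formylated peptides, had a biological coefficient of variation of 1.47 between lines of a group, above that of 99.8% of the genes tested. It was at 0 in 2 DMSO control and 6 paclitaxel libraries, its medians were 4.43 and 0.98 CPM, and only Pac D7 at 52.1 CPM and Pac C3 at 22.3 CPM were above every DMSO control library. The fitted log2 fold change of 0.15 and the difference of mean ranks of -5.26 (rank-sum permutation p = 0.102, two-sided, unadjusted) point to opposite sides. The library labelled Parental, at 16.7 CPM, was above all 12 DMSO control libraries.

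A further 4 heavy chains did not pass the filter, and H2-Q4, H2-Q6 and H2-Q7 were found almost only in paclitaxel libraries. The share of all genes found in this way was not computed. H2-Q7 was detected in 7 of 17 paclitaxel libraries and in 1 of 12 DMSO control libraries (0.19 CPM in DMSO 2), with 83 counts in all. Without the library labelled Pac H9, which held 2.72 CPM, it was detected in 6 of 16. H2-Q6 was detected in 5 paclitaxel libraries and H2-Q4 in 4, and both were at 0 in all 12 DMSO control libraries, where 3 counts are worth 0.437 to 2.98 CPM. Pac D7 held the highest level of each, at 17.0 CPM for H2-Q7, 12.2 CPM for H2-Q6 and 1.98 CPM for H2-Q4. It held 43 counts of H2-Q6 and 7 of H2-Q4, and every other library with these 2 genes held 1 or 2 counts. Of the 50-base words at the H2-Q6 3′ end 42.9% also occur in other genes, most often H2-Q7, so their counts may be split. Words of the H2-K1 3′ end also occur in H2-Q6, and Pac D7 held 1542 counts of H2-K1. Without the filter H2-Q7 was called at 0.01, which compared 83 counts in 8 libraries. H2-T10 was detected in 26 of 30 libraries, at up to 3.97 CPM in the DMSO control and 7.64 CPM in the paclitaxel libraries.

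The light chain B2m, which every class I heavy chain needs at the surface, ranged from 1805 to 4368 CPM with a median of 2581 CPM in the DMSO control lines. In the paclitaxel resistant lines it ranged from 992 to 4883 CPM with a median of 2772 CPM. Its log2 fold change was 0.14 (95% interval -0.21 to 0.49, adjusted p = 0.643 by edgeR's quasi-likelihood test), so a fold as large as that fitted for H2-D1 lay outside its interval.

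**Figure D2:**
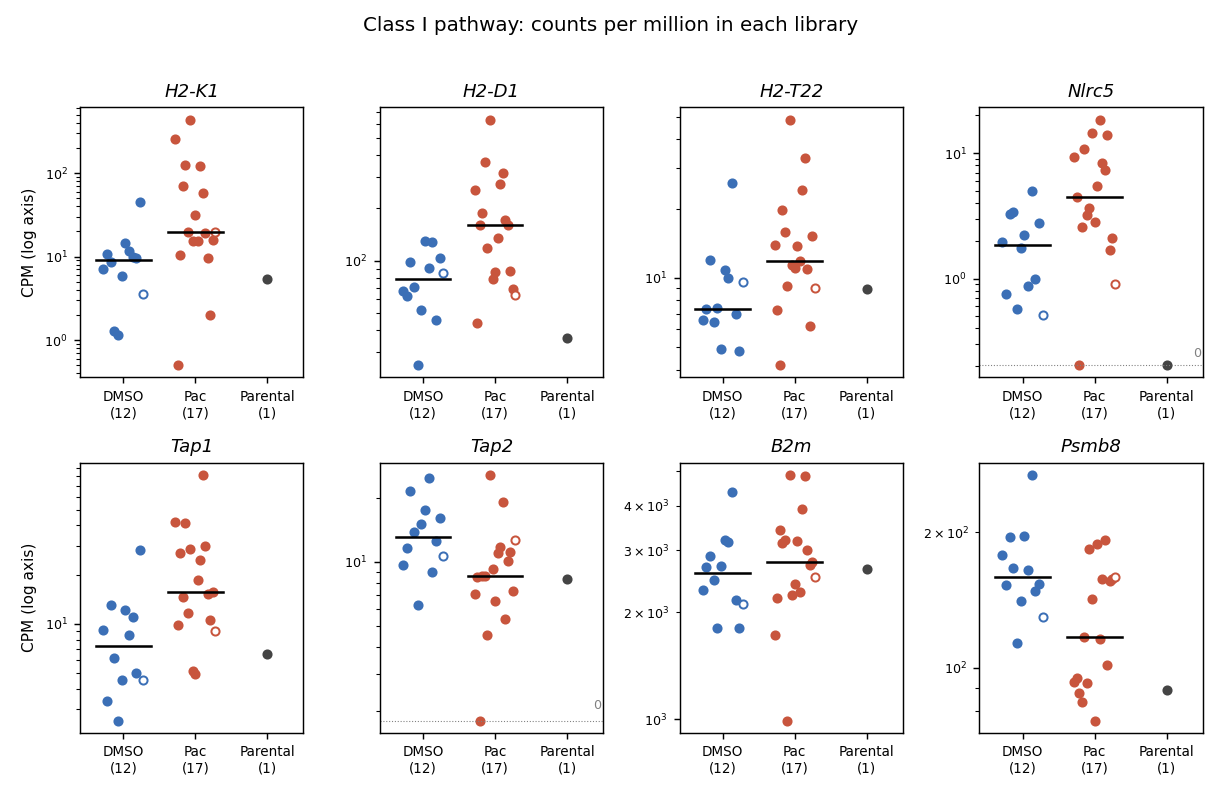
CPM (log axis) of 8 class I pathway genes in each of the 12 DMSO control (blue), 17 paclitaxel resistant (red) and 1 parental (grey) libraries, with group medians as bars, the libraries labelled DMSO 12 and Pac H9 as open points and libraries at 0 on the dotted line. H2-K1 spans 0.50 to 437 CPM in the paclitaxel libraries, while B2m spans 992 to 4883 CPM.

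Among genes of peptide transport and loading, 4 of the 7 had a positive and 3 a negative fold change, beside 56.6% and 43.4% of all genes tested. Tap1 (ENSMUSG00000037321, chr17:34187553-34197225 on the plus strand), a subunit of the peptide transporter, ranged from 2.56 to 28.4 CPM with a median of 7.33 CPM in the DMSO control lines and from 4.93 to 81.3 CPM with a median of 15.7 CPM in the paclitaxel resistant lines. It was above the DMSO control median in 15 of the 17 paclitaxel libraries, with Pac G9, A6, C11, H1 and D7 above every DMSO control library. The library labelled DMSO 11 was again the highest of its group. The log2 fold change was 1.34 ± 0.38 SE (adjusted p = 0.0262 by edgeR's quasi-likelihood test), 1.31 (adjusted p = 0.0311) without the libraries labelled DMSO 12 and Pac H9, and 1.72 (adjusted p = 0.00476) without the library labelled DMSO 11. The call at 0.05 was lost without Pac G9 (1.06, adjusted p = 0.0605), and without DMSO 2, DMSO 6 or DMSO 10 (adjusted p = 0.0535, 0.0509 and 0.0508).

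Tap2, the other subunit of the transporter, had medians of 13.1 CPM in the DMSO control and 8.61 CPM in the paclitaxel libraries, and it was above the DMSO control median in 2 of 17 (log2 fold change -0.48, adjusted p = 0.254). The count of Tap1 over that of Tap2 was above the median of the DMSO control libraries in all 17 paclitaxel libraries, with group medians of 0.446 and 1.68, and 8 paclitaxel libraries were above the highest DMSO control library, with or without the libraries labelled DMSO 12 and Pac H9. This ratio was chosen after the levels were seen and is given with no test. Pac C1, the smallest library, had 0 counts of Tap2.

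Tapbp (tapasin), which bridges the transporter to the heavy chain, had medians of 32.7 and 36.2 CPM and was highest in Pac F10, G9 and D7, with a log2 fold change of 0.55 (adjusted p = 0.194). Pdia3, a disulfide isomerase of the loading complex, differed little in size and varied little, from 79.9 to 155 CPM in the DMSO control and from 96.4 to 186 CPM in the paclitaxel lines, and it was above the DMSO control median in 15 of 17 (log2 fold change 0.31 ± 0.11 SE, adjusted p = 0.0689). Calr, the chaperone calreticulin, had a log2 fold change of 0.10, the peptide trimmer Erap1 -0.26 and the editor Tapbpl -0.14.

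Of the 5 genes of the immunoproteasome and its activator, 4 had a negative log2 fold change, beside 43.4% of all genes tested. Psmb8, Psmb9 and Psmb10, the inducible catalytic subunits, had log2 fold changes of -0.37, -0.18 and -0.11, that of Psmb10 turning to 0.0195 when libraries were thinned to equal depth. Psmb8 ranged from 113 to 268 CPM with a median of 159 CPM in the DMSO control lines and from 76.4 to 192 CPM with a median of 117 CPM in the paclitaxel resistant lines, 7 of which were below every DMSO control line (adjusted p = 0.126 by edgeR's quasi-likelihood test). Psme2 of the PA28 activator had a log2 fold change of -0.33 and Psme1 of 0.11, but 66.8% of the 3′ words of Psme2 also occur in Psme2b or Gm7928. Psmb9, which shares its promoter region with Tap1, had medians of 146 and 121 CPM, and the count of Tap1 over that of Psmb9 was above the DMSO control median in all 17 paclitaxel libraries, with medians of 0.0448 and 0.115, and above the highest DMSO control library in 5, with or without the libraries labelled DMSO 12 and Pac H9. That ratio too was chosen after the levels were seen. Of the 14 constitutive subunits of the 20S proteasome, none was called at 0.01. Of these, 12 had a negative log2 fold change (median -0.23), as did 43.4% of all genes tested. At 0.05, 3 of the 14 were lower, beside 3.63% of all genes, namely Psmb7 (-0.72, adjusted p = 0.0135), Psma4 (-0.54, adjusted p = 0.0278) and Psma3 (-0.57, adjusted p = 0.0349). Without the libraries labelled DMSO 12 and Pac H9, Psma3 was called lower at 0.01 (-0.70, adjusted p = 0.00529), beside 1.7% of all genes.

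Nlrc5 (ENSMUSG00000074151, chr8:94434356-94527272 on the plus strand), the class I transactivator, ranged from 0.51 to 4.97 CPM with a median of 1.84 CPM in the DMSO control lines. In the paclitaxel resistant lines it ranged from 0 to 18.5 CPM with a median of 4.51 CPM, and 8 of 17 were above every DMSO control line, with Pac F10, D10, H3, C11 and A6 the highest. Pac C1 and the parental library were at 0. The fitted mean was 3.33-fold higher (log2 fold change 1.74 ± 0.43 SE, adjusted p = 0.0114 by edgeR's quasi-likelihood test), and 1.70 on the log2 scale (adjusted p = 0.00984) without the libraries labelled DMSO 12 and Pac H9. It passed 0.01 when any of 7 single libraries was left out, namely DMSO 9 (adjusted p = 0.00951), Pac C1 (0.00654), Pac C3 (0.00959), Pac E1 (0.00837), Pac H4 (0.00802), Pac H8 (0.00947) or the library labelled Pac H9 (0.00688), and its adjusted p was at most 0.0249. Nlrc5 rests on 499 counts over 30 libraries. Of 17 factors known at MHC promoters, all tested, none was called at 0.01, and Rfx5, a subunit of the complex at the X box, had a log2 fold change of 1.11 ± 0.33 SE (adjusted p = 0.0341). Of 10 tested interferon receptor and JAK-STAT genes, all 10 had a positive fold change, as did 56.6% of all genes tested, and none was called at 0.01, with Ifngr2 at 0.66 (adjusted p = 0.0488) and Irf9 at 1.38 (adjusted p = 0.0604). Without the libraries labelled DMSO 12 and Pac H9, Rfx5 was at 1.13 (adjusted p = 0.0362) and Ifngr2 at 0.57 (adjusted p = 0.0832), and 2 of the 10 were negative.

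Ciita, the class II transactivator, did not pass the filter, with 333 counts in all. It ranged from 0 to 4.97 CPM with a median of 0.76 CPM in the DMSO control lines and from 0 to 12.4 CPM with a median of 1.96 CPM in the paclitaxel resistant lines, and Pac C11, F10, G9, E2 and B2 were above every DMSO control line (rank-sum permutation p = 0.023, two-sided, unadjusted).

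Class II genes varied widely between lines of one group, with biological coefficients of variation of 1.06 for H2-Aa and 0.834 for Cd74, above those of 98.3% and 95.6% of the genes tested. H2-Aa (ENSMUSG00000036594, chr17:34282744-34287823 on the minus strand), the alpha chain of I-A, ranged from 2.496 to 334 CPM with a median of 18.1 CPM in the DMSO control lines. In the paclitaxel resistant lines it ranged from 15.9 to 573 CPM with a median of 140 CPM, and 16 of 17 were above the DMSO control median. Among DMSO control lines, DMSO 9 at 334 CPM and DMSO 2 at 132 CPM were high, and 4 paclitaxel lines were above DMSO 9. DMSO 9 was the smallest DMSO control library, at 1053948 counts. It was also the highest of its group for genes outside class II, among them B2m, Psmb8, H2-T23 and Nlrc5, but not for H2-K1, H2-D1 or Tap1. The fitted mean of H2-Aa was 3.20-fold higher (log2 fold change 1.68 ± 0.65 SE, adjusted p = 0.107 by edgeR's quasi-likelihood test), and the log2 fold change was 1.76 (adjusted p = 0.11) without the libraries labelled DMSO 12 and Pac H9. Without DMSO 9 alone it was 2.38 (adjusted p = 0.0225), and over all fits with 1 library left out it ran from 1.45 to 2.38 with adjusted p up to 0.166.

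H2-Eb1, the beta chain of I-E, ranged from 0.50 to 72.5 CPM with a median of 7.41 CPM in the DMSO control lines and from 1.94 to 156 CPM with a median of 31.7 CPM in the paclitaxel resistant lines (log2 fold change 1.58 ± 0.59 SE, adjusted p = 0.0943, and 1.67 with 0.0927 without the libraries labelled DMSO 12 and Pac H9), and without DMSO 9 its log2 fold change was 2.04 (adjusted p = 0.0314, up to 0.176 with any other library left out). The gene of the I-E alpha chain, annotated as the polymorphic pseudogene H2-Ea-ps, held 2 counts over all 30 libraries. H2-Ab1 (chr17:34257689-34269419 on the plus strand), the beta chain that pairs with H2-Aa, ranged from 18.1 to 225 CPM with a median of 52.7 CPM in the DMSO control lines and from 2.90 to 217 CPM with a median of 59.0 CPM in the paclitaxel resistant lines. Pac A6, D4 and H8 held 2.90, 3.66 and 5.24 CPM and were below every DMSO control line. Its log2 fold change was 0.11 (95% interval -0.82 to 1.04, adjusted p = 0.903 by edgeR's quasi-likelihood test).

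Cd74, the invariant chain that holds class II molecules until they reach the endosome, ranged from 8.75 to 659 CPM with a median of 118 CPM in the DMSO control lines and from 15.1 to 550 CPM with a median of 109 CPM in the paclitaxel resistant lines. No paclitaxel line was above or below the range of the DMSO control lines, and the log2 fold change was 0.05 (95% interval -0.92 to 1.02, adjusted p = 0.958 by edgeR's quasi-likelihood test). Without the libraries labelled DMSO 12 and Pac H9 it was -0.03.

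Within each group, H2-Aa and Cd74 moved together across lines. Pearson's r of log2 CPM was 0.847 over the 12 DMSO control lines (permutation p = 0.00028, Benjamini-Hochberg adjusted over 22 relations 0.000825, Spearman's rho 0.909 with p = 0.00014) and 0.744 without the 2 lines farthest from the median of H2-Aa. Over the 17 paclitaxel resistant lines r was 0.918 (p = 1e-05, the smallest the permutations can give, adjusted 7.33e-05, rho 0.865 with p = 3e-05) and 0.881 without 2 lines. Without the libraries labelled DMSO 12 and Pac H9, r was 0.871 and 0.919. The count of H2-Aa over that of Cd74 had a median of 0.198 in the DMSO control libraries and of 1 in the paclitaxel libraries, all 17 of which were above the DMSO control median and 11 above the highest DMSO control library. That highest library was the one labelled DMSO 12, at 0.717, and the library labelled Pac H9 was at 0.693. Without them, 12 of 16 paclitaxel libraries were above every DMSO control library. Against H2-Ab1 the medians were 0.354 and 2.77, and again all 17 paclitaxel libraries were above the DMSO control median and 11 above every DMSO control library, or 12 of 16 without those libraries. The parental library was at 0.315 against Cd74 and 0.207 against H2-Ab1. Of the other 2 ratios computed, that of H2-D1 over B2m was above the DMSO control median in 14 of 17 paclitaxel libraries and above the highest DMSO control library in 7, and that of H2-DMb1 over H2-DMb2 in 12 and 2. These ratios were chosen after the levels were seen and are given with no test.

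**Figure D3:**
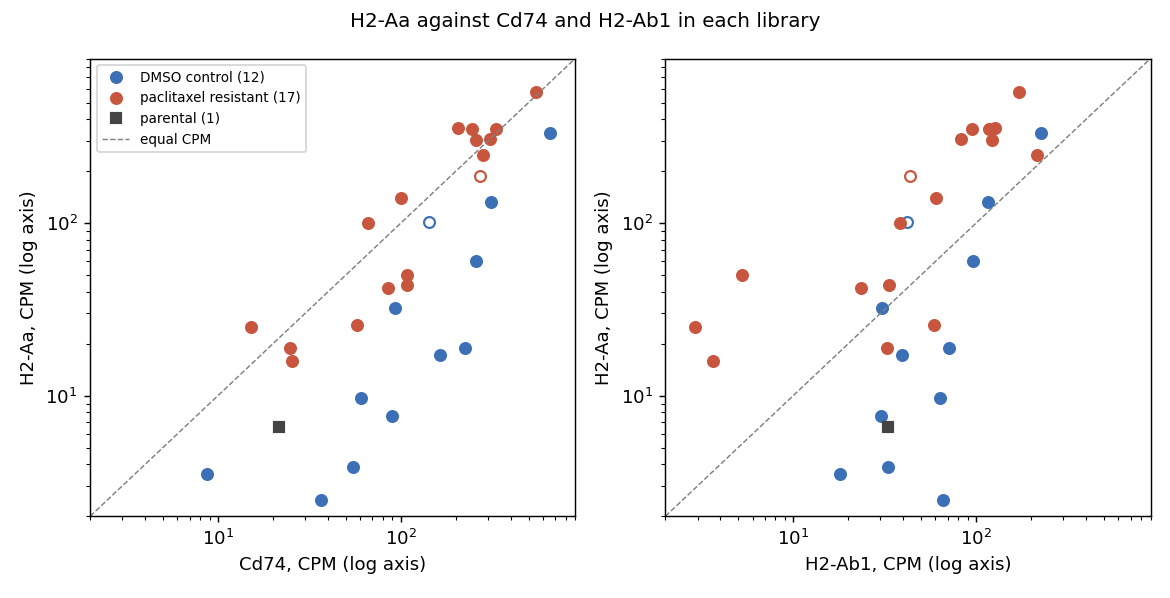
H2-Aa against Cd74 (left) and against H2-Ab1 (right) in each library, in CPM on log axes, for 12 DMSO control (blue), 17 paclitaxel resistant (red) and 1 parental (square) libraries, with the libraries labelled DMSO 12 and Pac H9 open. In both panels most red points lie above the blue points at the same level of the gene on the x axis, where the median count ratio to Cd74 is 1 against 0.198.

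The DM chains, which edit the peptide of class II molecules, were at low counts. H2-DMb1 ranged from 0 to 8.94 CPM with a median of 2.29 CPM in the DMSO control lines and from 0 to 37.2 CPM with a median of 6.55 CPM in the paclitaxel resistant lines, and 6 paclitaxel lines were above every DMSO control line (log2 fold change 1.89 ± 0.58 SE, adjusted p = 0.039 by edgeR's quasi-likelihood test, and 1.88 with 0.049 without the libraries labelled DMSO 12 and Pac H9). Its rank-sum permutation p was 0.0653 (two-sided, unadjusted), and the log2 fold change was lowest without Pac E2 (1.59, adjusted p = 0.0741). Of the 3′ words of H2-DMb1, 20.4% also occur in H2-DMb2, so their counts may be split. H2-DMa, its partner, had medians of 5.31 and 11.0 CPM (log2 fold change 1.096, adjusted p = 0.325, and 0.665 to 1.68 on the log2 scale with 1 library left out). H2-DMb2 had medians of 4.12 and 6.51 CPM (log2 fold change 0.56, adjusted p = 0.67). Its log2 fold change ran from -0.04 to 1.27 with 1 library left out, lowest without Pac E2 and highest without DMSO 9. The DO chains, which restrain DM, had log2 fold changes of 0.16 (H2-Oa) and -0.26 (H2-Ob).

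Pac E2 held the highest level of H2-Aa, Cd74, H2-DMa, H2-DMb1 and H2-DMb2 among the paclitaxel lines, and DMSO 9 the highest of these among the DMSO control lines. Pac A6 and D4 were low in most class II genes. The median of the 36 pairwise correlations among the 9 class II chains, chaperones and editors was 0.739 in the DMSO control and 0.725 in the paclitaxel lines, where all pairs of tested genes had medians of 0.001 and 0.007. For the 15 pairs of class I heavy chains these medians were 0.197 and 0.499.

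**Figure D4:**
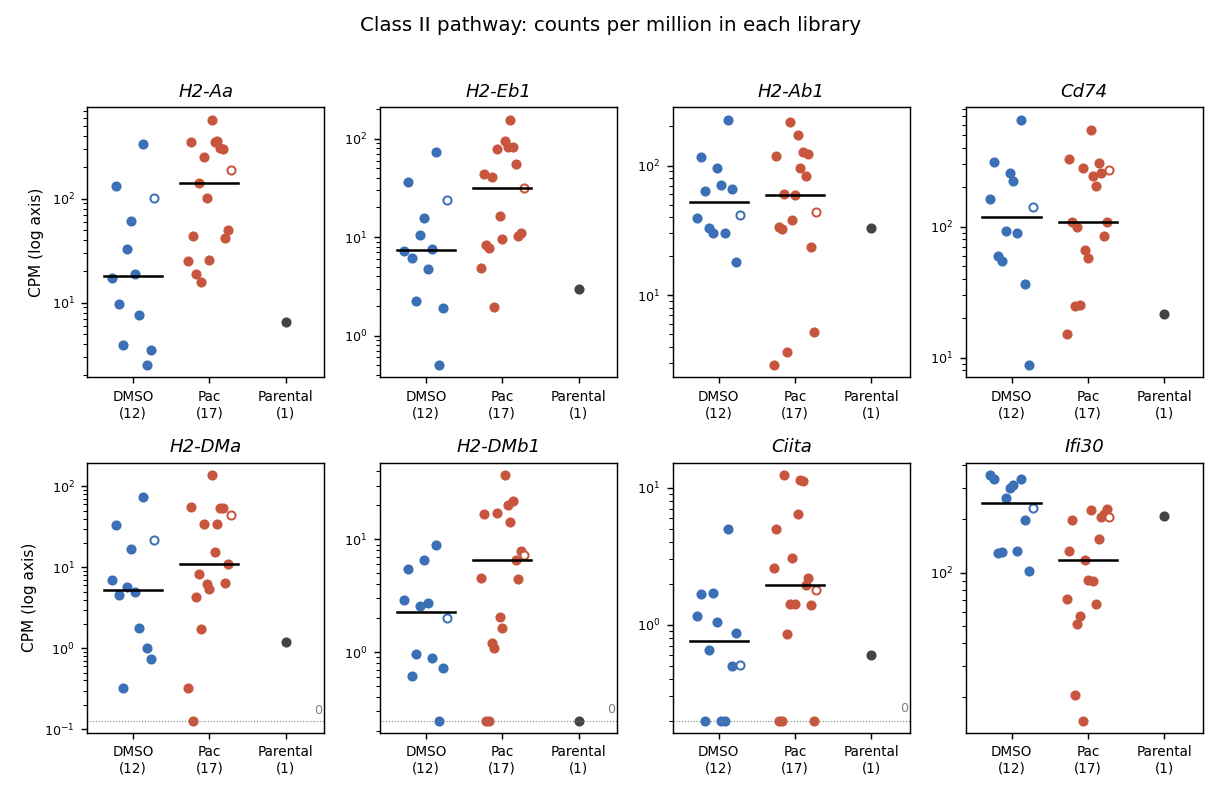
CPM (log axis) of 8 class II pathway genes in each library, drawn as for the class I genes: 12 DMSO control (blue), 17 paclitaxel resistant (red) and 1 parental (grey), medians as bars, the libraries labelled DMSO 12 and Pac H9 open, libraries at 0 on the dotted line. H2-Aa medians are 18.1 and 140 CPM and Cd74 medians 118 and 109 CPM, and Ifi30 goes down to 14.7 CPM in the paclitaxel libraries.

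Ifi30, an endosomal thiol reductase that opens disulfide bonds of antigens, ranged from 102 to 353 CPM with a median of 247 CPM in the DMSO control lines. In the paclitaxel resistant lines it ranged from 14.7 to 227 CPM with a median of 118 CPM. None of the 17 was above the DMSO control median and 8 were below every DMSO control line, with Pac D7 at 14.7 CPM and Pac C3 at 20.6 CPM the lowest. The log2 fold change was -0.90 ± 0.31 SE (adjusted p = 0.0635 by edgeR's quasi-likelihood test), and -0.97 (adjusted p = 0.0562) without the libraries labelled DMSO 12 and Pac H9. Ifi30 was lower at 0.05 with edgeR's likelihood ratio test, with DESeq2, with log10 total count as a covariate, without the libraries labelled DMSO 11 and Pac C3, and in 5 of the 29 fits with 1 library left out (adjusted p from 0.034 to 0.114). Ctss, the protease that cuts the invariant chain, had a log2 fold change of -0.14. Of 8 other endosomal proteases and turnover genes tested, 1 was called at 0.01, beside 1.21% of all genes called lower, the cysteine protease inhibitor Cst3, which was lower in the paclitaxel resistant lines, with medians of 482 and 306 CPM (log2 fold change -0.61 ± 0.13 SE, adjusted p = 0.00421 by edgeR's quasi-likelihood test, and -0.59 with 0.00822 without the libraries labelled DMSO 12 and Pac H9).

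Between class I and class II, 1 pair was computed. H2-D1 and H2-Aa had an r of 0.076 over the DMSO control lines (permutation p = 0.82, adjusted 0.82, rho 0.035, r without the 2 farthest lines -0.04) and of 0.171 over the paclitaxel lines (permutation p = 0.51, adjusted 0.534, rho 0.142, r without 2 lines 0.26). Leaving out the libraries labelled DMSO 12 and Pac H9 gave r of 0.045 and 0.22. Pac A6, with H2-K1 at 253 CPM, held 25.2 CPM of H2-Aa and 15.1 CPM of Cd74, and Pac B2, with H2-K1 at 0.50 CPM, held 353 CPM of H2-Aa and 331 CPM of Cd74. Pac D7 was high in both.

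H2-D1 and Tap1 moved together in both groups, with r of 0.761 over 12 lines (permutation p = 0.00421, adjusted 0.00926, rho 0.832, r without the 2 farthest lines 0.68) and 0.769 over 17 lines (p = 0.00038, adjusted 0.000929, rho 0.816, r without 2 lines 0.835). H2-K1 and H2-D1 had an r of 0.822 over the paclitaxel lines (p = 0.0001, adjusted 0.000367, rho 0.694, r without 2 lines 0.683) and of 0.595 over the DMSO control lines (permutation p = 0.0424, adjusted 0.0622, rho 0.615, r without 2 lines 0.371). Of the 3′ words of H2-D1, 8.92% also occur in other genes, most often H2-K1. Nlrc5 and Tap1 had an r of 0.683 over the DMSO control lines (permutation p = 0.0144, adjusted 0.0264, rho 0.727, r without 2 lines 0.692) and 0.214 over the paclitaxel lines (permutation p = 0.412, adjusted 0.457, rho 0.319, r without 2 lines 0.374), and the difference between the groups was not tested. These were 0.668 and 0.148 without the libraries labelled DMSO 12 and Pac H9. Nlrc5 and H2-K1 had an r of 0.261 (permutation p = 0.415, adjusted 0.457, rho 0.231, r without 2 lines 0.168) and 0.306 (permutation p = 0.233, adjusted 0.285, rho 0.243, r without 2 lines 0.192), and Nlrc5 and H2-D1 of 0.588 (permutation p = 0.0424, adjusted 0.0622, rho 0.58, r without 2 lines 0.637) and 0.333 (permutation p = 0.193, adjusted 0.25, rho 0.397, r without 2 lines 0.392). Of the 6 relations of Nlrc5, 1 thus had an adjusted p under 0.05. H2-Aa and H2-Ab1 had an r of 0.686 over the DMSO control lines (permutation p = 0.0144, adjusted 0.0264, rho 0.629), which rested on the 2 farthest lines (0.329 without them), and of 0.796 over the paclitaxel lines (permutation p = 8e-05, adjusted 0.000352, rho 0.855, r without 2 lines 0.788). The 11 pairs were chosen with the levels known and computed in both groups, and 12 of the 22 relations had an adjusted p under 0.05.

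**Figure D5:**
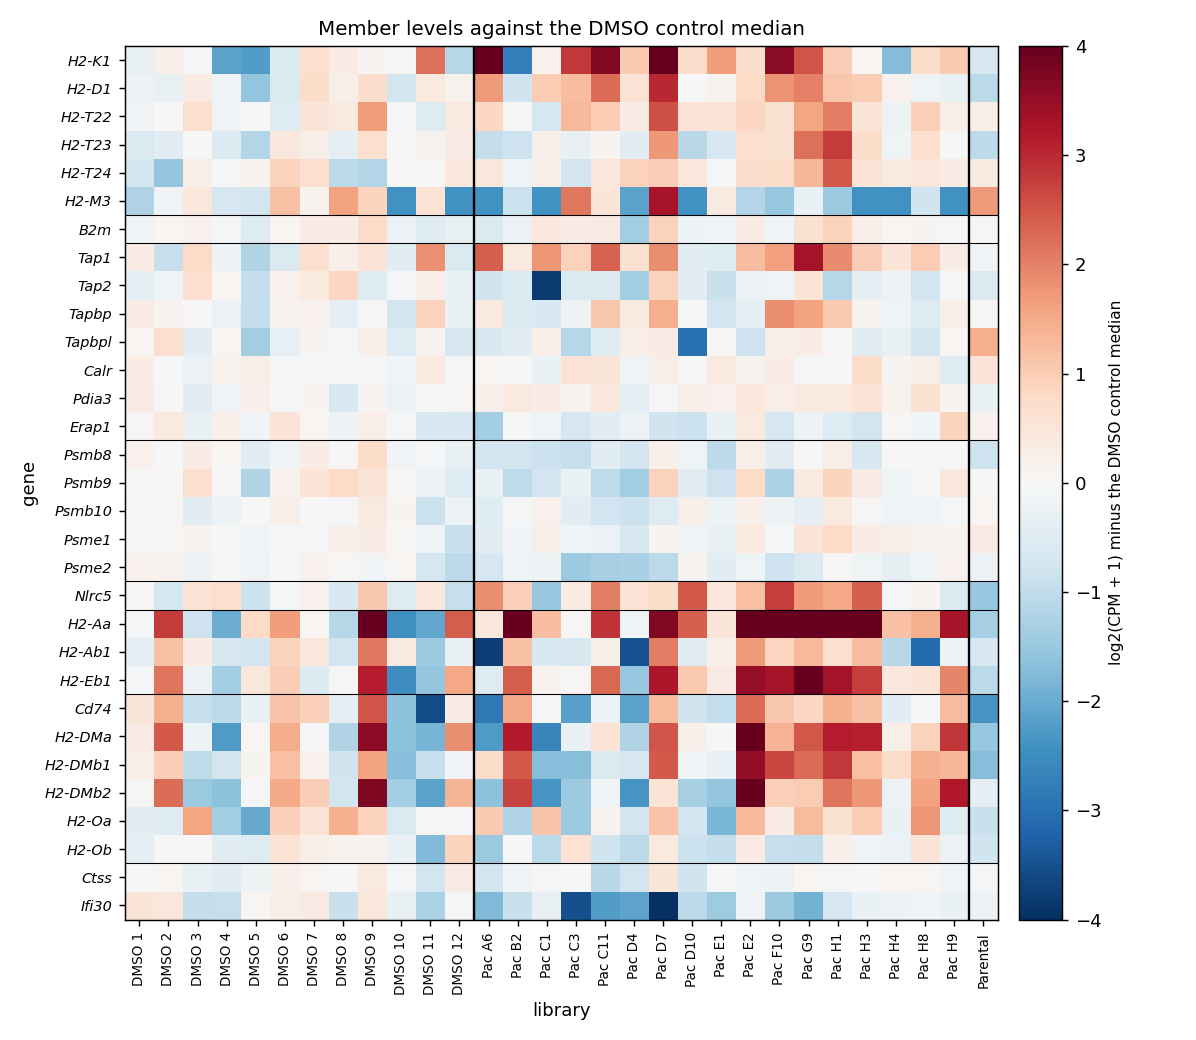
Difference of log2(CPM + 1) from the median of the DMSO control libraries for the 31 tested genes (rows, by role) in each of the 30 libraries (columns, black lines between DMSO control, paclitaxel resistant and parental), with the colours ending at -4 and 4. H2-Aa is above the DMSO control median in 16 of 17 paclitaxel columns and Ifi30 in none.

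The library labelled Parental, which may be a DMSO control line, was inside the range of the DMSO control lines for H2-K1, H2-D1, Tap1, H2-Aa, H2-Ab1, H2-Eb1 and Cd74, and at 0 for Nlrc5 and H2-DMb1. Its H2-Aa level of 6.56 CPM and Cd74 level of 21.5 CPM were toward the low end of the DMSO control lines. As 1 library without a replicate, it entered no test. Of 17 further MHC and MHC-like chains matched by symbol, 1 passed the filter, H2-Eb2, with medians of 2.23 and 4.13 CPM (log2 fold change 1.14, adjusted p = 0.0962). Of 7 tested costimulation and adhesion genes none was called at 0.01, with the adhesion receptor Cd48 at medians of 307 and 158 CPM (log2 fold change -0.68, adjusted p = 0.0707). Of 12 tested B-lineage markers none was called at 0.01, and 10 had a negative fold change, as did 43.4% of all genes tested. Ms4a1, which encodes CD20, had medians of 142 and 12.5 CPM (log2 fold change -1.84, adjusted p = 0.128, and -2.37 with 0.0483 without the libraries labelled DMSO 12 and Pac H9). Cd79b, a signalling chain of the B-cell receptor, was lower at 0.05 (log2 fold change -0.64, adjusted p = 0.0132), beside 3.63% of all genes. Without the libraries labelled DMSO 12 and Pac H9 it was lower at 0.01 (-0.70, adjusted p = 0.00837), beside 1.7% of all genes. The part of these markers, and of the myeloid and dendritic markers, in the class II results was not tested.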

How the data were processed

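3′-end digital gene expression libraries were made from 30 lines, 1 per line. Per the labels, reads were aligned with STAR 2.5.1b to GRCm38, and the authors deposited whole-number counts per gene without normalization. Collapsing of molecular identifiers and use of strand are not given in the sources used here. The paper describes subpools of samples but not which lines were in each, so this batch was not modelled. Whether the subpools follow the treatment could not be tested. Intervals cover the spread between lines and counting error only.

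Libraries were grouped by their labels (12 DMSO control, 17 paclitaxel resistant, 480919 to 6739131 counts each) and tested with edgeR 4.0.16 in R 4.3.3 (TMM, filterByExpr, quasi-likelihood F test, Benjamini-Hochberg adjustment over 9445 genes, threshold 0.01). The fit was also run on simulated counts with known folds, and no result here rests on that run. Correlations used log2 CPM with a prior count of 2, and permutation tests 100000 permutations in Python 3.11.15. Ratios added 0.5 to each count. Positions are from gencode M21. Motif letters were chosen with these promoters in view.

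By rule, fold changes were given for genes called at 0.01 and for H2-K1, H2-D1, B2m, Tap1, Psmb8, Nlrc5, H2-Aa, H2-Ab1, Cd74 and Ciita, and the others were named after their values were seen. The genes and lists were chosen with earlier results of these data known. The alternatives changed the tool (edgeR's likelihood ratio test or DESeq2 1.42.0), the size factors (RLE), the filter, the threshold, the libraries kept and the depth (thinning, or log10 total count as a covariate), and single genes were also compared by rank-sum permutation. Over the 36 genes, the rank-sum permutation p (two-sided, unadjusted) was lowest for Pdia3 (0.00119), Tap1 (0.00324), Ifi30 (0.00353), H2-K1 (0.0036) and H2-Aa (0.00774). For H2-Eb1 it was 0.0205.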

Additional observations from a re-analysis of the deposited data

Results flagged for a closer look

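The library labelled Parental, which entered no comparison, was above all 12 DMSO control libraries for 4 genes of the list: H2-M3 at 16.7 CPM, Tapbpl at 20.3 CPM, Calr at 241 CPM and Psme1 at 413 CPM. The highest DMSO control levels of these genes were 15.6, 11.4, 222 and 402 CPM. It is 1 library without a replicate, and it follows in the deposited table the libraries whose labels are in doubt. Both groups had more than 10 libraries, so no library was tested as an outlier.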

How the results depend on the processing

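At an adjusted p under 0.01, the genes of the list called higher numbered 0 in all libraries with TMM factors, 0 with RLE factors, 4 with the likelihood ratio test, 4 with DESeq2, 1 without the filter, 1 without the libraries labelled DMSO 12 and Pac H9, 3 without the libraries labelled DMSO 11 and Pac C3, 1 without the smallest library, 2 with log10 total count as a covariate, 0 when thinned to equal depth, 5 at 0.05 and 0 to 2 with 1 library left out; none was called lower under any of these. Over all genes, 94 were called higher, against 232 (likelihood ratio), 269 (DESeq2), 158 (without DMSO 12 and Pac H9), 168 (without DMSO 11 and Pac C3), 49 (thinned to 480919 counts), 157 (covariate), 371 (at 0.05) and 54 to 159 with 1 library left out (54 without DMSO 2, 57 without DMSO 4, 58 without DMSO 10 and 159 without DMSO 11). The 114 called lower became 216, 224, 56 when thinned and 343 at 0.05, and 77 to 147 with 1 library left out. The cause of these shifts was not tested, apart from the fewer counts after thinning and the looser threshold.

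When thinned, H2-D1 and Pdia3 passed 0.05, and H2-K1, Tap1, Nlrc5 and H2-DMb1 did not pass the filter and have no value. Directions held for H2-K1, H2-D1, Tap1, Nlrc5, H2-Aa, H2-Eb1, H2-DMb1 and Ifi30 wherever they were fitted. Cd74 turned to -0.0333 without the libraries labelled DMSO 12 and Pac H9, -0.00965 without those labelled DMSO 11 and Pac C3 and -0.00517 when thinned, and ranged from -0.17 to 0.44 with 1 library left out. H2-Ab1 ranged from -0.0901 to 0.406 and H2-DMb2 from -0.0400 to 1.27 with 1 library left out, Psmb10 was 0.0195 when thinned, and H2-M3 had a difference of mean ranks of -5.26. No scaling moved the median of all genes by more than 0.1. Low genes were limited by depth, with 3 counts worth 0.464 to 6.27 CPM in the paclitaxel libraries. No paired analysis was possible because the paclitaxel lines are named by wells and carry no replicate numbers.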
